A study of Mus musculus with 2 samples.

Results

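The genes of the MAP kinase cascade and of the dual-specificity phosphatases were compared between mouse haematopoietic cells carrying E47ER and cells carrying bHLHER. Members were all annotated symbols beginning with Mapk (Mapkapk included), Map2k, Map3k, Map4k or Dusp and followed by a digit. The rule found 43 of the 10208 named genes on the array, namely 26 kinases, 12 phosphatases and 5 associated proteins that share the name but are not kinases. Each member had 1 probe and a value on both arrays. Mapk3, Map3k1, Map4k1, Mapkapk2, Dusp2, Dusp4, Dusp5 and Dusp16, which belong to the same families, had no named probe and were not analysed here.

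E47ER cells were E2A-deficient haematopoietic progenitors infected with E47ER, and bHLHER cells were E2A-deficient haematopoietic cells that by their label carry bHLHER. In both groups 48 h passed after infection before 4-hydroxytamoxifen was given for 6 h. E47 is a transcription factor made from the E2A gene, and fused to the oestrogen receptor's ligand-binding region (ER) it stays inactive until 4-hydroxytamoxifen is added. By its name bHLHER carries the basic helix-loop-helix part, the region through which such factors bind DNA and each other. Both groups thus share the loss of E2A, the infection and the drug. The sources used here give no strain, age or number of animals behind the cells, and neither an uninfected nor an untreated array was part of the comparison. Each group had 1 array, so no value below has a replicate, no test was possible and no p-value is given.

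In the cascade a MAP4K or a small GTPase activates a MAP3K, which phosphorylates a MAP2K, which in turn phosphorylates the MAP kinase itself on a threonine and a tyrosine. The MAP kinases fall into the ERK, JNK, p38 and ERK5 branches and a few atypical members, and their best known roles in blood progenitors are in the answers to cytokines and stress. Dual-specificity phosphatases (Dusp genes) remove phosphate from both tyrosine and threonine. Those of the MAP kinase phosphatase group bind MAP kinases and switch them off, and several are themselves induced by the cascade, which makes them a feedback. Transcript levels do not show the activity of these enzymes, which is set by phosphorylation.

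Values are linear intensities of 1-colour arrays as deposited, in arbitrary units. The median of all probes on an array served as its floor, 0.957 for E47ER and 0.953 for bHLHER, and genes above it on both are called measured on both arrays. Genes were called higher or lower at a log2 ratio (E47ER over bHLHER) of at least 1 in size, which is 2-fold. This rule goes by size alone. As the nearest thing to an error, 34 genes with 2 probes measured on both arrays gave an SD of 0.536 for the log2 ratio of a single probe, or 0.266 without the widest pair. That spread holds probe noise and not the variation between cultures.

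No kinase and no Dusp gene measured on both arrays reached 2-fold in either direction. The lowest ratios were those of Dusp14 (1.85-fold lower in E47ER) and Map3k12 (1.63-fold lower), the highest that of Mapk7 (1.20-fold higher), while Map2k1, Dusp1 and Dusp6 were level. Map3k8, above the floor in E47ER only, was at least 1.78-fold higher. Of the 43 members 23 were measured on both arrays, and 0 of the 23 were called, where 3.13% of all 5534 genes measured on both arrays were called, 2.31% higher and 0.813% lower. At that background less than 1 call would fall on a set of this size, so the count of 0 is near the background. Of the 23, 20 had a log2 ratio within 0.5 of 0 (87.0%), against 82.5% of all measured genes. The median log2 ratio was -0.11 over the 15 measured kinases and -0.06 over the 6 measured phosphatases, beside -0.05 over all measured genes. No spread between cultures is known for these medians, and the probe noise above does not give one.

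Of the 23 measured members 18 had a ratio below 0 (78.3%), against 55.8% of all measured genes. The count moved with some normalizations. It stayed 18 of 23 under 75th percentile scaling and the pseudocount. Under quantile normalization it was 17 of 23 (73.9%), against 54.3% of genes. After a loess fit of the ratio on the mean level it was 14 of 23 (60.9%), against 2769 of 5534 genes. Centring on pan-leukocyte markers, which lowered every log2 ratio by 0.56, put 5 of the 23 members at least 2-fold lower and none higher, where 12.2% of genes were called lower. Beside these values the markers of other cells differed between the arrays. Of 17 stromal and fibroblast markers with a value, 11 were measured on both arrays and 10 of these had a ratio below 0. Their summed intensity was 68.0 in E47ER and 92.8 in bHLHER, and the matrix markers Dcn, Lum and Postn were below the floor on both arrays. The 8 progenitor markers summed to 41.5 in E47ER and 59.4 in bHLHER, and 7 were measured on both arrays, 3 above 0 and 4 below. Kit, Flt3 and Runx1 had log2 ratios of 0.17, 0.13 and 0.11. Meis1, Hoxa9, Lmo2 and Hhex had -0.47, -0.52, -0.82 and -0.88, and Gata2 was below the floor on both arrays. The 14 pan-leukocyte markers summed to 678 in E47ER and 438.4 in bHLHER, with Lsp1 the largest at 277 in E47ER and 172 in bHLHER. All 14 were measured on both arrays, 11 above 0 and 3 below, and 3 were called higher and none lower. Granulocyte and monocyte markers summed to 39.8 in E47ER and 43.8 in bHLHER. Among them Mmp8 was 2.73-fold lower in E47ER. Itgam was above the floor in E47ER only, at 1.69 in E47ER and 0.487 in bHLHER. B lineage, T lineage and erythroid markers summed to 15.7, 6.13 and 3.12 in E47ER and 12.9, 5.37 and 2.95 in bHLHER. Single genes carried most of 3 of these 4 sums, with Fcgr3 at 28.3, Cd79a at 12.0 and Car1 at 2.54 in E47ER. Of the T lineage markers Cd247 had a log2 ratio of -0.31 and Cd2 of 0.93. Below the floor on both arrays were 5 of 10, 4 of 6, 3 of 5 and 3 of 4 markers of these lists. The part of such markers in the members' ratios was not tested, and in bulk RNA fewer cells of a type and less RNA per cell cannot be told apart.

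**Figure D1:**
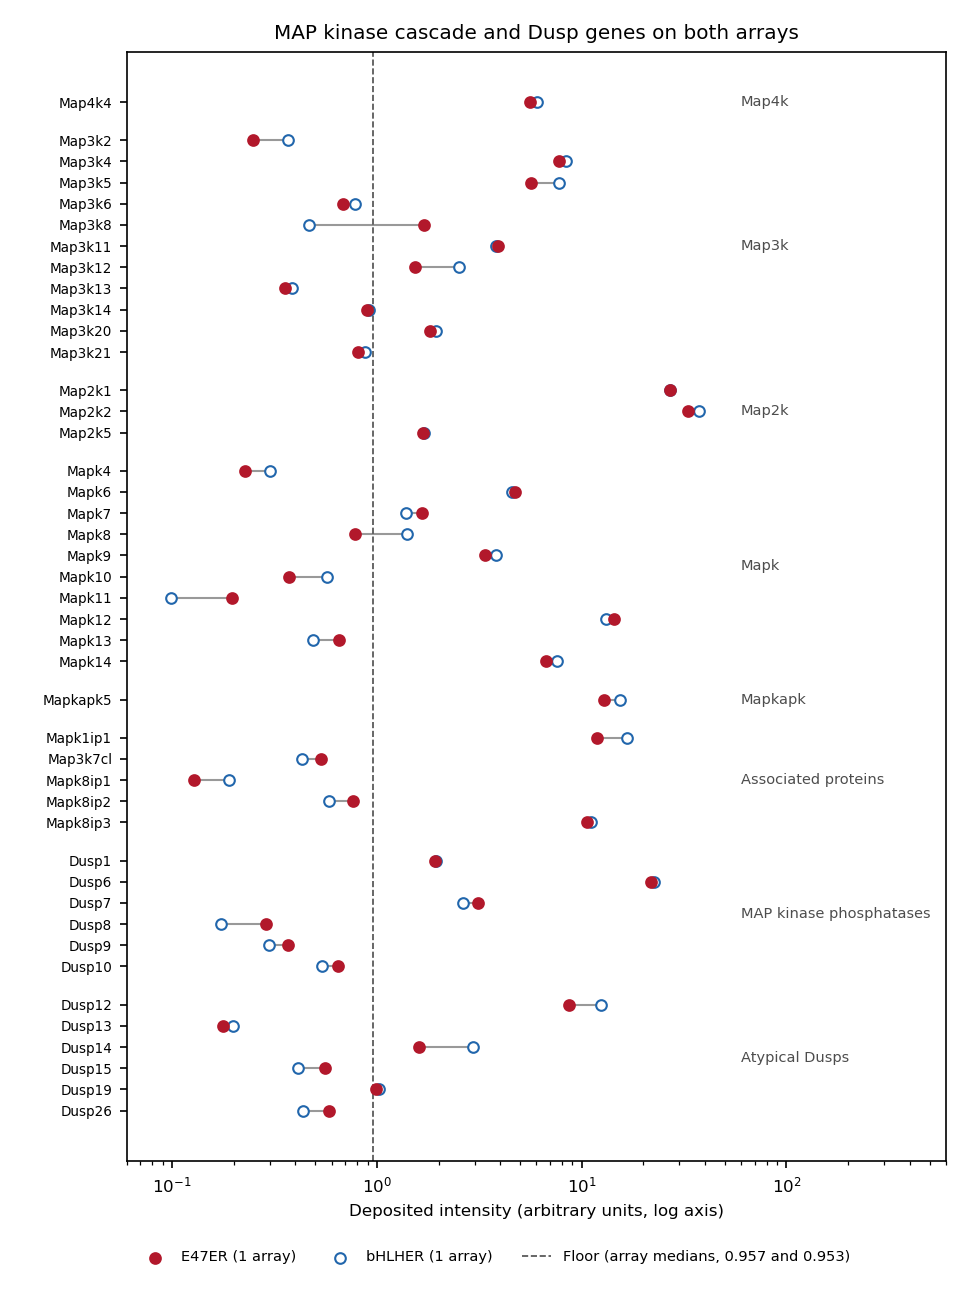
Deposited intensity (arbitrary units, log axis) of each of the 43 members on the E47ER array (filled) and the bHLHER array (open), 1 array each, grouped by role, with the floor as a dashed line. The longest line is that of Map3k8, at 1.69 in E47ER and 0.468 in bHLHER, and most pairs of points lie close together.

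At the top of the cascade Map4k4, a kinase upstream of JNK, had an intensity of 5.60 in E47ER and 6.04 in bHLHER, a log2 ratio of -0.11. Among the 11 MAP3K genes 5 were measured on both arrays, with a median log2 ratio of -0.11 and a range from -0.71 to 0.04. The lowest was Map3k12 (DLK, best known as an injury kinase of neurons upstream of JNK), at 1.54 in E47ER and 2.51 in bHLHER. That is 1.63-fold lower in E47ER, at percentile 3.47 of the ratios of all measured genes, and the E47ER value is not far above the floor. Map3k5 (ASK1), which relays oxidative stress to JNK and p38, was at 5.64 in E47ER and 7.73 in bHLHER, a log2 ratio of -0.45 at percentile 11.5. The other 3 were nearly level. Map3k4 (MEKK4), a kinase switched on by Gadd45 proteins, was at 7.79 in E47ER and 8.42 in bHLHER. Map3k11 (MLK3) was at 3.91 in E47ER and 3.81 in bHLHER, and Map3k20 (ZAK), a sensor of stalled ribosomes, at 1.82 in E47ER and 1.95 in bHLHER.

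Map3k8 (Tpl2, Entrez gene 26410), the kinase that links Toll-like and TNF receptors to the ERK branch, was the member with the widest gap. Its intensity was 1.69 in E47ER, above the floor, and 0.468 in bHLHER, below it, so only a bound can be given: Map3k8 was at least 1.78-fold higher in E47ER. This bound does not reach 2-fold, which 19.4% of the 180 genes above the floor in E47ER only did. The bound is set by the floor, and once the floor was lowered to the 25th percentile Map3k8 counted as measured on both arrays and was 3.62-fold higher, where 2.59% of genes were called higher (5.40% with no floor at all). With its single probe and a dim value on the bHLHER array, the size of this difference is poorly fixed.

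The remaining 5 MAP3K genes were below the floor on both arrays and no fold is given for them. Map3k14 (NIK, the kinase of the non-canonical NF-kappaB route) was just below it, at 0.892 in E47ER and 0.910 in bHLHER, and Map3k21 (MLK4) at 0.810 in E47ER and 0.874 in bHLHER. Map3k6 (ASK2), a partner of Map3k5, was at 0.686 in E47ER and 0.785 in bHLHER. Map3k13 (LZK), a relative of Map3k12, and Map3k2 (MEKK2), which feeds the ERK5 branch, were also below it, at 0.356 and 0.248 in E47ER and 0.387 and 0.368 in bHLHER.

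Only 3 MAP2K genes, Map2k1, Map2k2 and Map2k5, had a named probe, so this tier is covered in part. These were the most even tier, with all 3 measured and log2 ratios from -0.17 to -0.01. Map2k1 (MEK1), which phosphorylates ERK, was at 26.9 in E47ER and 27.0 in bHLHER. Map2k2 (MEK2), its close relative, was at 33.0 in E47ER and 37.2 in bHLHER, a log2 ratio of -0.17. Map2k5, the kinase of the ERK5 branch, was at 1.67 in E47ER and 1.69 in bHLHER. These differences are smaller than the spread of a single probe.

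Of the 10 Mapk genes 5 were measured on both arrays, and their log2 ratios ran from -0.18 to 0.26 with a median of 0.04. Mapk7 (ERK5) had the highest ratio of any member measured on both arrays, at 1.66 in E47ER and 1.39 in bHLHER. This was 1.20-fold higher in E47ER, at percentile 81.2 of all measured genes. In the p38 branch Mapk14 (p38 alpha), the common form in blood cells, was at 6.68 in E47ER and 7.56 in bHLHER. Mapk12 (p38 gamma) was at 14.4 in E47ER and 13.1 in bHLHER, so these p38 genes differed little and in opposite directions. Mapk13 and Mapk11, the delta and beta forms, were below the floor on both arrays. Mapk11 was at 0.196 in E47ER and 0.0988 in bHLHER, and Mapk13 at 0.653 in E47ER and 0.486 in bHLHER. Mapk6 (ERK3), an atypical MAP kinase, was at 4.72 in E47ER and 4.59 in bHLHER, while Mapk4 (ERK4) was below the floor at 0.227 in E47ER and 0.301 in bHLHER.

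In the JNK branch Mapk8 (JNK1, Entrez gene 26419) was above the floor in bHLHER only, at 0.784 in E47ER and 1.40 in bHLHER. It was at least 1.47-fold lower in E47ER, short of 2-fold, which 2.92% of the 171 genes above the floor in bHLHER only reached. Mapk9 (JNK2) was at 3.38 in E47ER and 3.80 in bHLHER, a log2 ratio of -0.17. Mapk10 (JNK3), the form known from neurons, was below the floor at 0.370 in E47ER and 0.568 in bHLHER. Of the 3 JNK genes only Mapk9 was above the floor on both arrays, so only its ratio is measured on both sides.

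Below the MAP kinases stood Mapkapk5 (PRAK), a kinase that binds Mapk6 and is also a p38 substrate, at 12.8 in E47ER and 15.4 in bHLHER, a log2 ratio of -0.27. Of the 5 associated proteins 2 were measured on both arrays. Mapk1ip1 was at 11.8 in E47ER and 16.6 in bHLHER, a log2 ratio of -0.49 at percentile 9.61, and Mapk8ip3 (JIP3), a scaffold of the JNK branch, at 10.6 in E47ER and 11.1 in bHLHER. The other JNK scaffolds Mapk8ip1 and Mapk8ip2, and Map3k7cl, named for its likeness to part of Map3k7, were below the floor on both arrays, at 0.128 to 0.762 in E47ER and 0.189 to 0.5803 in bHLHER.

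**Figure D2:**
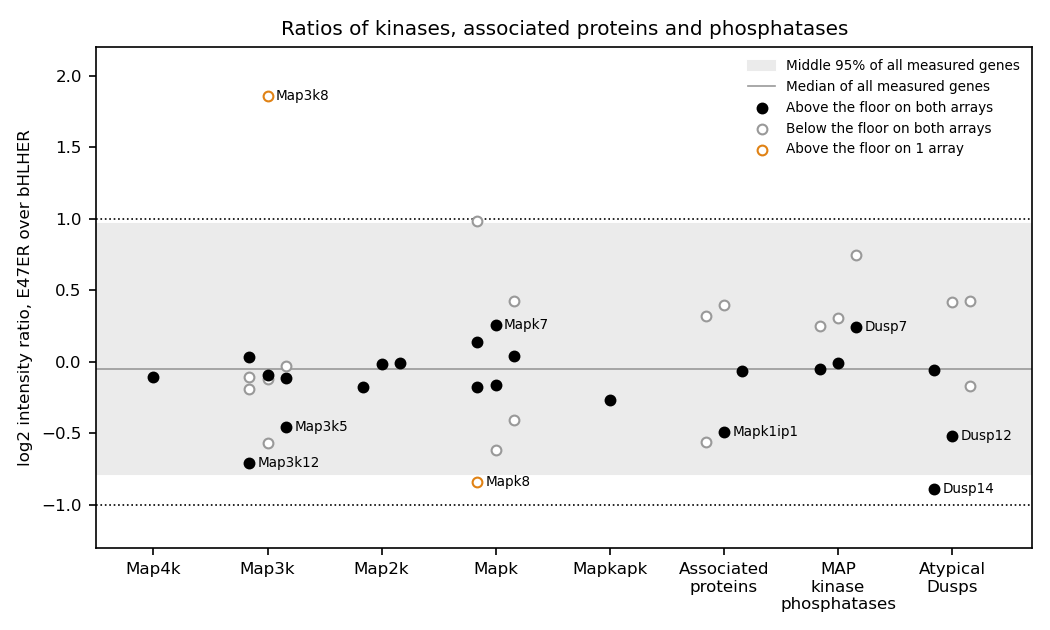
The log2 intensity ratio of E47ER over bHLHER of each member by role, with dotted lines at 2-fold and a band for the middle 95% of all measured genes, which ran from -0.79 to 0.96. Filled points, measured on both arrays, stay inside the dotted lines, Dusp14 at -0.89 lies below the band, and the point of Map3k8 rests on a value below the floor in bHLHER.

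The phosphatases comprise MAP kinase phosphatases, which carry a docking domain for MAP kinases, and smaller atypical ones without it. Among the 6 MAP kinase phosphatases 3 were measured on both arrays and all lay within 0.25 of 0 on the log2 scale. Dusp6 (MKP-3), the cytoplasmic phosphatase of ERK that ERK signalling itself induces, was at 21.8 in E47ER and 22.6 in bHLHER, a log2 ratio of -0.05. Dusp1 (MKP-1), an immediate early nuclear phosphatase of p38 and JNK, was at 1.93 in E47ER and 1.94 in bHLHER. Dusp7, an ERK phosphatase related to Dusp6, was at 3.10 in E47ER and 2.62 in bHLHER, 1.18-fold higher in E47ER and the highest ratio of a measured phosphatase.

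The 3 atypical phosphatases measured on both arrays all had a ratio below 0, as did 55.8% of all measured genes. Dusp14 (MKP-6, Entrez gene 56405), a small phosphatase studied in T cells as a brake on receptor signalling, was at 1.60 in E47ER and 2.96 in bHLHER. It was 1.85-fold lower in E47ER, with a log2 ratio of -0.89 at percentile 1.32, the lowest among members measured on both arrays. Its E47ER value is not far above the floor. Dusp12, a phosphatase with a zinc-binding end, was at 8.65 in E47ER and 12.4 in bHLHER, 1.43-fold lower, at percentile 8.35. Dusp19, linked to the JNK branch, was next to the floor at 0.986 in E47ER and 1.03 in bHLHER. The other 6 phosphatases, Dusp8, Dusp9, Dusp10, Dusp13, Dusp15 and Dusp26, were below the floor on both arrays, at 0.177 to 0.642 in E47ER and 0.172 to 0.540 in bHLHER. Of these 5, the atypical Dusp15 and Dusp26 among them, had the higher value in E47ER, and the atypical Dusp13 had the lower. With the floor at the 25th percentile the median of the phosphatases was 0.12 over 10 genes.

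Members were also set against genes of like brightness. In each of 5 equal brightness classes of all measured genes, the middle 95% of log2 ratios was taken. Of the 23 members 22 lay inside that range and Dusp14 lay outside it, at -0.89 where the lower limit was -0.76. By construction a small share of all measured genes lies outside such a range too. Dusp14 is in the dimmest class, and its value of 1.60 in E47ER is not far above the floor. Map3k12, at -0.71 in the same brightness class, lay inside. With a threshold of 0.58 on the log2 scale in place of 1, Dusp14 and Map3k12 were called lower and no member was called higher, where 6.47% of genes were called lower and 6.36% higher.

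**Figure D3:**
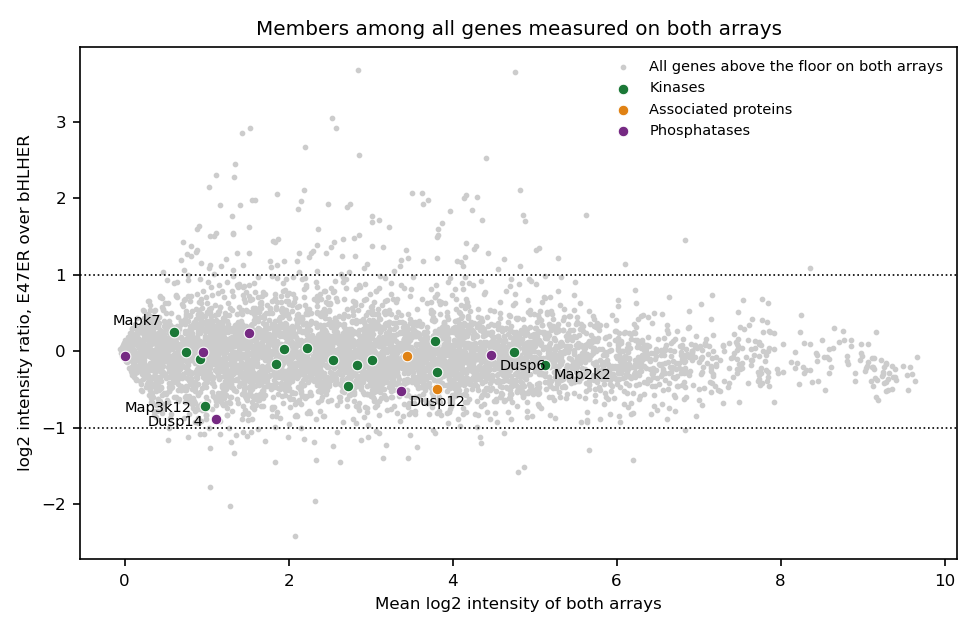
The log2 ratio of E47ER over bHLHER (y axis) against the mean log2 intensity of both arrays (x axis) for the 5534 measured genes in grey, with kinases, associated proteins and phosphatases in colour and dotted lines at 2-fold. The 23 members spread over dim and bright levels and none crosses a dotted line.

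E proteins such as E47 bind the E-box CANNTG, in which N is any base. The promoter windows of the measured phosphatases and kinases with the lowest and highest ratios are shown for this reason, 250 bases before to 50 after the start, from RefSeq on build GRCm38.p6. All run 5′ to 3′ along the gene's strand, and capitals mark each CANNTG.
Dusp14: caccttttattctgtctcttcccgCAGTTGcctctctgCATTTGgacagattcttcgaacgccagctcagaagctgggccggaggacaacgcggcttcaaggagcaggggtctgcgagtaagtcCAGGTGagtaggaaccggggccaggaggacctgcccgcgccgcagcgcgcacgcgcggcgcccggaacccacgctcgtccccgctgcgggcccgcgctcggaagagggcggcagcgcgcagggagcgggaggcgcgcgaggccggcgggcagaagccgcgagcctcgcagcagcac
Map3k12: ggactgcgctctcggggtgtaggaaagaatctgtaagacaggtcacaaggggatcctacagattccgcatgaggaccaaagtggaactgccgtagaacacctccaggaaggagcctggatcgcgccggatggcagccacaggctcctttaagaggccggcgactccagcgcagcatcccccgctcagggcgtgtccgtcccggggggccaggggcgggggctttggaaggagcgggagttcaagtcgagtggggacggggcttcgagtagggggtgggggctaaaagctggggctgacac
Dusp7: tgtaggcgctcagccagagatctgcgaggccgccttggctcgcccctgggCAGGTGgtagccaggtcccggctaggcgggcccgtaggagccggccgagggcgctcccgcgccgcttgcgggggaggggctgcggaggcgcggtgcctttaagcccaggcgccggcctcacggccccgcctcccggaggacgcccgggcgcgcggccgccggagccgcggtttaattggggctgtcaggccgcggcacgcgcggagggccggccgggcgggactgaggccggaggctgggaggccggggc
Mapk7: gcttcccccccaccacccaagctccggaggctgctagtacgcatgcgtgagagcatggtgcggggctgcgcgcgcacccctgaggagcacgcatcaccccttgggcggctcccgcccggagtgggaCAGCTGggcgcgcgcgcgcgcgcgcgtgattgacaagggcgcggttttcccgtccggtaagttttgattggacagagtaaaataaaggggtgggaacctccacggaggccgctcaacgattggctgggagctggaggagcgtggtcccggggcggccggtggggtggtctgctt
The Dusp14 window is chr11:84068308-84068607 on the minus strand and holds 3 E-boxes, which begin 226, 212 and 126 bases before the start. The nearest of these to the start is CAGGTG. The Map3k12 window, chr15:102516955-102517254 on the minus strand, holds none. The Dusp7 window, chr9:106368382-106368681 on the plus strand, holds CAGGTG 200 bases before the start. The Mapk7 window, chr11:61494217-61494516 on the minus strand, holds CAGCTG 124 bases before it. Windows were found for 32 of the 43 members, 1 per gene, the nearest to the gene's annotated 5′ end. The start used by the table lay more than 100 bases from that end in 11 of the 32, by 899 bases in Dusp14 and by up to 67913 (Map3k13), so distances above are to the table's start. CANNTG, which reads the same on both strands, was in 23 of the 32 (71.9%), against 72.1% of 27025 genes in the table and 66.9% of 8207 genes with a named probe and a window. Among genes measured on both arrays it was in 17 of 20 members (85.0%), against 63.3% of 4527 genes. CAGGTG, searched on both strands as CAGGTG or CACCTG, was in 9 of the 32 (28.1%), against 20.0% of all genes in the table and 18.1% of those with a named probe. In measured members it was in 5 of 20, against 16.3% of measured genes. CAGCTG was in 5 of the 32 (15.6%), against 16.1% of all genes in the table, and these 5 were all among the 20 measured members, against 13.8% of measured genes. Both are forms of CANNTG and are counted in it. A match describes the letters of the window and does not show binding.

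Genes that feed, restrain or answer to the cascade were described in 8 lists. Of 77 with a value 49 were measured on both arrays, and 6 were called, 3 higher and 3 lower (12.2%), beside 0 of the 23 members and 3.13% of all measured genes. The same 6 genes were called under quantile normalization, loess, 75th percentile scaling and the pseudocount. Of the scalings, only centring on pan-leukocyte markers changed the split, to 1 higher (Mknk1) and 10 lower. It lowers every log2 ratio by 0.56, and 12.2% of all measured genes were then called lower. Rras2 and Dok3 were then no longer called. The median log2 ratio of the 49 was -0.05, the same as over all genes to 2 decimals. These lists were chosen with earlier results of these data known, so the share of the 49 that was called is a description. Each of the 6 genes had 1 probe.

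Among the inputs, 1 of 6 measured Ras and adaptor genes was called. Rras2, a small GTPase related to Ras, was 2.33-fold higher at 21.3 in E47ER and 9.15 in bHLHER. Sos1, which loads Ras with GTP, was lowest in that list with a log2 ratio of -0.40, and Nras was at 7.59 in E47ER and 7.14 in bHLHER. The 1 measured gene of the Raf list, the MAP4K-like kinase gene Mink1, had a log2 ratio of 0.06. Of 11 measured inhibitors of Ras and Raf, 1 was called higher and 1 lower. Dok3, an adaptor that holds back receptor signalling to Ras, was 2.18-fold higher at 3.03 in E47ER and 1.39 in bHLHER. Spry2 (Sprouty2), a feedback inhibitor induced by ERK, was 2.50-fold lower at 1.60 in E47ER and 4.00 in bHLHER. Its relative Spry4 went the other way, at 2.87 in E47ER and 1.69 in bHLHER, a log2 ratio of 0.76 below the threshold.

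None of 4 measured phosphatases outside the Dusp family was called, with log2 ratios from -0.27 for Ppp2ca, a catalytic subunit of protein phosphatase 2A, to 0.03 for Ppm1d. None of 7 measured scaffold and activator genes was called either, from -0.45 for Arrb2, a beta-arrestin, to 0.09 for Iqgap1. Gadd45b, whose product binds and activates the Map3k4 kinase, was above the floor in E47ER only, at 2.57 in E47ER and 0.735 in bHLHER, and so at least 2.69-fold higher. Map3k4 itself was level, with a log2 ratio of -0.11.

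Among the targets, Mknk1, a kinase that ERK and p38 switch on and that phosphorylates the cap-binding factor of translation, had the largest ratio of the 49 genes. It was 3.62-fold higher, at 8.25 in E47ER and 2.28 in bHLHER, while the other 2 measured substrate kinases, Rps6ka3 and Rps6ka5, had log2 ratios of 0.12 and -0.23. Of 6 measured substrate transcription factors, Elk3, an ETS factor phosphorylated by ERK, was called, 2.62-fold lower at 6.77 in E47ER and 17.8 in bHLHER. The highest of that list was Jund at 0.63, at 287 in E47ER and 185 in bHLHER, below the threshold. Of 11 measured ERK response genes Myc was the 1 called, 2.10-fold lower at 9.54 in E47ER and 20.1 in bHLHER. The receptor gene Plaur, at 4.32 in E47ER and 2.21 in bHLHER, came close to the threshold from the other side with a log2 ratio of 0.97. Egr1 and Fos, immediate early genes of the ERK branch, were below the floor on both arrays, at 0.381 and 0.339 in E47ER and 0.425 and 0.298 in bHLHER. The ERK response genes thus lay on both sides of 0, 4 above and 7 below, with a median of -0.09.

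**Figure D4:**
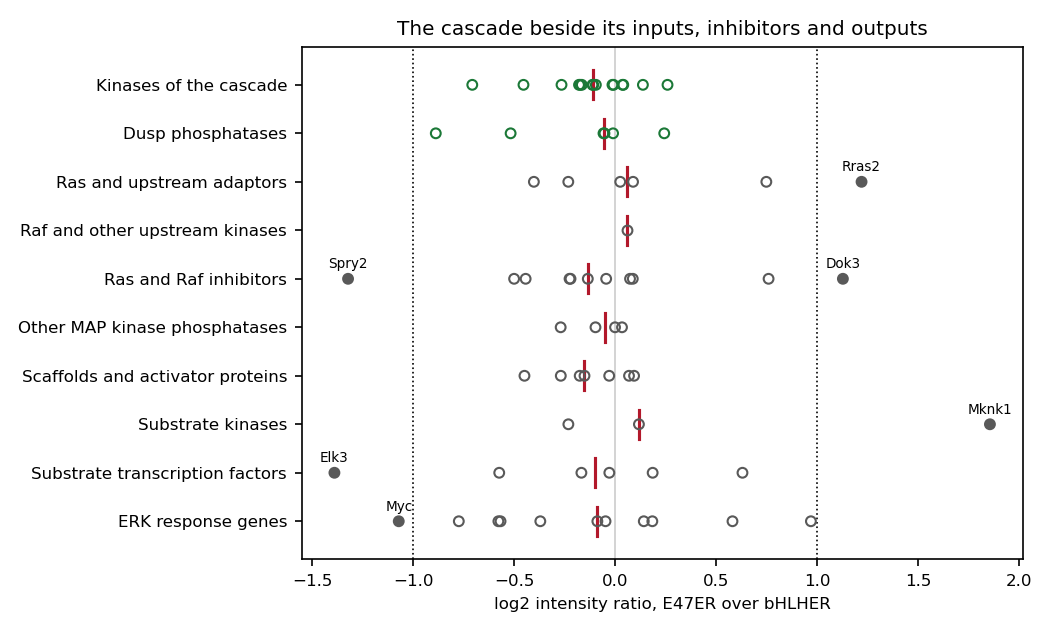
The log2 ratio of E47ER over bHLHER of each gene measured on both arrays, for the kinases and Dusp phosphatases (top) and 8 lists of other pathway genes, with filled points past 2-fold (dotted lines) and red bars at each list's median. The 6 filled points, Mknk1, Rras2, Dok3, Myc, Spry2 and Elk3, all lie in the lists outside the cascade.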

How the data were processed

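RNA of 2 groups was measured on 1-colour CodeLink mouse arrays (Cy5 label, per the labels), 1 array per group. The authors deposited a linear intensity for each of 20289 probes. The sources used here do not state how these intensities were scaled or corrected for background. Their medians differ by 0.418%, so they were used as deposited. Probes were named through the platform annotation: 10349 had 1 gene symbol, none several, and 9940 are unnamed here. For genes with several probes the brightest was taken. A gene above the floor on 1 array received a bound, written "at least", computed against its value on the other array or that array's floor, whichever was higher.

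The members, pathway lists and alternatives were chosen with earlier results of these data known. Named were members past the threshold, the 3 highest and lowest ratios of kinases and of phosphatases, 18 fixed family members, and called genes and extremes of each list. Other members illustrate their role. Alternatives were quantile normalization and loess (limma 3.58.1), 75th percentile scaling, centring on pan-leukocyte markers, other floors, thresholds and a pseudocount, and the mean over probes. The calling procedure was tested on simulated data with less noise than the single-probe spread. This checks the code and not the error of these arrays. Python 3.11.15 was used. The number of arrays limits the precision.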

Additional observations from a re-analysis of the deposited data

How the results depend on the processing

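No paired analysis was possible because there is only 1 array per group, so no replicate was left out either. The count of called members was also 0 under quantile normalization, loess, 75th percentile scaling and the pseudocount. The mean over probes, a 75th percentile floor and the threshold of 1.5 could add no call, since each member has 1 probe and the other settings are stricter. It was 1 (Map3k8, higher) with the floor at the 25th percentile and with no floor, 2 (lower) with the threshold of 0.58, and 5 with centring on pan-leukocyte markers. That centring lowers every log2 ratio by 0.56 and gave 0 members higher and 5 lower (Dusp12, Dusp14, Map3k5, Map3k12 and Mapk1ip1), where 12.2% of all genes were called lower. Under it the medians were -0.67 for kinases and -0.61 for phosphatases, beside -0.61 for all genes, and Mapk7 and Dusp7 turned to -0.30 and -0.31. Of the 6 pathway genes called, Rras2 (0.66) and Dok3 (0.57) fell short of the threshold under it, and Fosl1, Etv4, Mef2c, Ier3, Rasa2, Arrb2 and Spry1 passed it as lower, which made 1 higher and 10 lower. The kinase median ranged from -0.14 to -0.07 under the other settings. The phosphatase median was -0.29 over the 2 genes left with the 75th percentile floor and 0.12 both with the lower floor and without a floor, where dim genes enter. Under the 4 scalings that recompute ratios without centring, each of the 16 named members moved by less than the single-probe spread of 0.536. The centring subtracts 0.557 from every ratio, more than that spread, so its shift says nothing about single members. The 75th percentile scaling likewise shifts every ratio by the same amount. Single-array values and dim probes limit all of these differences.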
